A study of Mus musculus with 50 samples.

Results

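Private low-share transitions are single-base changes between C and T, or between G and A, that were called in 1 tumour and there carried by fewer than 20% of the reads at the site. They were chosen by 3 values in an exome variant table of IL6Myc mouse tumours: a transition with 1 reference and 1 alternate base, a carrier count of 1, and a read share below 20% in the carrying tumour. The loci of the antibody heavy, kappa and lambda chains and the gene Myc were left out. These criteria found 2181 variants among the 25823 rows of the table, or among 20289 single-base substitutions, of which 9903 were private and 9567 of those lay outside the loci left out. A further 106 variants of the same kind lay inside those loci or Myc and are not described.

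The tumours came from mesenteric lymph nodes of transgenic mice of genotype IL6Myc, a multiple myeloma model whose name joins interleukin 6 and Myc, with 1 tumour a mouse. The labels give the cell type as malignant plasma cells and do not name the promoters of the transgenes, the strain, the age of the mice or the tumour content of the samples. They list 45 tumours and 5 kidneys of wild-type Balb/c mice. Columns of 44 tumours were used, while kidneys and the tumour numbered 4 were not analysed here. A private call therefore is private among these tumours and is not shown to be acquired. DNA cannot be set against plasma cell markers, so the labelled cell type was not checked.

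Transitions are the commonest kind of point mutation in mammalian DNA. Cytosine loses its amino group spontaneously, above all where it is methylated before a G, and is then read as T. Activation-induced deaminase (AID), the enzyme that mutates antibody genes in germinal-centre B cells, deaminates cytosine too, prefers the motif AAC, AGC, TAC or TGC, and is known to mutate a set of other highly transcribed B cell genes near their starts.

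Sequence around a variant could be read where it fell in a RefSeq promoter window, from 250 bases before to 50 after a gene start on build GRCm38.p6. The window can be that of a gene other than the one the variant is annotated to. That held for 34 of the 2181 variants, and in all 39 matches the base in the window equalled the deposited reference base. The sequences below are shown because they carry the kinds of site that the description turns on: a cytosine in an AID motif in a known AID off-target, cytosines before G, and a pair of neighbouring changes. The capital marks the changed base, and each line reads 5′ to 3′ on the strand given.
Pim1, C>T, chr17:29491653-29491677, plus strand: ctcactctgcagCccaatggcaccc
Hist1h3e, C>T, chr13:23562370-23562394, plus strand: gaggaggagaaaCgggagcagaggg
Elavl1, C>T, chr8:4325067-4325091, plus strand: gcgcgcacgaccCgctccccggccc
Ndufaf5, C>T, chr2:140170651-140170675, plus strand: tagtcccgttggCgcatgcgcctaa
Cyp3a41a, C>T, chr5:145720133-145720157, minus strand: gtacttcaggcaCagcagagtaggc
Cyp3a41a, T>C, chr5:145720134-145720158, plus strand: cctactctgctgTgcctgaagtact

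The changed C of Pim1, which encodes a serine/threonine kinase, completes the motif AGC and makes the missense change p.Pro81Ser in tumour 13, where 11.11% of reads carried it. Its window is that of Gm26885, a gene on the minus strand (offset -121 from that start), and not that of Pim1. The changed C at the start of the histone gene Hist1h3e, at 6.3% in tumour 45, is called upstream in the deposited annotation and lies 3 bases past the start in the RefSeq window. It completes AAC and is also followed by G. Those of Elavl1, an RNA-binding protein, at 16.67% in tumour 42, and Ndufaf5, a mitochondrial complex I assembly factor, at 12.5% in tumour 38, are both annotated in a 5′ UTR and followed by G. The window of the Ndufaf5 site is that of Esf1 (offset -105). The pair upstream of the cytochrome P450 gene Cyp3a41a lies on neighbouring bases, and both changes had a share of 8.89% in tumour 6.

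Of the 22 C>T variants in these windows (G>A counted on the other strand), 5 (22.7%) were followed by G and 8 (36.4%) ended AAC, AGC, TAC or TGC; a C can be in both groups. Over all 5243376 cytosines on both strands of 32817 windows, 15.4% were followed by G and 20.8% ended such a motif. The 34 private C>T variants with a share of 20% or more in the same windows had 13 (38.2%) before G and 13 (38.2%) in the motif. On either strand, CG occurs in 94.6% of windows and the motif in 100%, so its presence in a window carries no information. These counts are small, are descriptions of letters and were not tested.

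The read shares that chose the variants ran from 1.73% to 19.85%, with a median of 10.53% and quartiles of 6.19% and 14.29%. Just inside the limit, 28 variants had 19% or more. Just outside it, 106 private transitions had 20% to below 21%, and 85 of those had exactly 20%. The table gives no read depth, so no interval can be set around a single share, and a missing call in another tumour can mean the reference base or too few reads. By change, 596 were C>T, 646 G>A, 480 T>C and 459 A>G. With both strands joined, 1242 (56.9%) were C>T and 939 were T>C.

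Most of the variants lay outside coding sequence. In all, 831 (38.1%) were intronic, 569 (26.1%) intergenic, 378 (17.3%) missense and 210 (9.63%) synonymous. A further 56 were in 3′ UTRs, 32 in 5′ UTRs and 32 in splice regions. The coding variants had the lower shares: the median was 6.71% for missense and 7.19% for synonymous changes, against 11.76% in introns and 10.71% between genes. Since the share was also the criterion, this ordering holds only within the range below 20%.

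Pooled over tumours, missense changes outnumbered synonymous ones among the low-share transitions. They did not among all private transitions from 20% or among transitions with several carriers. In the part from 20 to 30%, however, there were 43 missense and 38 synonymous changes. The 378 missense and 210 synonymous variants give a ratio of 1.80, or 64.3% missense (exact 95% interval 60.3 to 68.2%). The 3032 private transitions with a share of 20% or more held 248 and 339, a ratio of 0.732. Tumours 2 and 5 held 43.3% of these 3032, and as a mean over 22 tumours the missense share of this class was 50.1%. The 7356 transitions found in several tumours held 533 and 1216, a ratio of 0.438. Exact intervals here and below are Clopper-Pearson and cover counting error only.

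The larger number of missense changes among the low-share transitions was also seen tumour by tumour. The ratio that the genetic code alone would give for transitions was not computed. Missense changes were more numerous than synonymous ones in 36 of 44 tumours, equal in 4 and fewer in 4. Numbers per tumour were small, from 1 missense variant in tumour 28 to 16 in tumour 34, and from 0 synonymous variants in tumour 39 to 13 in tumour 11. In the 22 tumours with at least 5 coding variants in each class, the missense share was 66.5 ± 12.9% (SD, n = 22) below the 20% limit and 50.1 ± 21.6% above it, higher below the limit in 17 and lower in 5. The mean difference of 16.4 percentage points passed a two-sided sign-flip permutation test over tumours (100000 resamples, adjusted p = 0.00675, Benjamini-Hochberg over 14 tests). Against the shared transitions carried by the same tumours, 65.4 ± 15.6% stood against 30.01 ± 1.68% (SD, n = 43), higher in 42 tumours and lower in 1. That difference of 35.4 points had an adjusted permutation p of 3.5e-05, from the smallest p that the resamples can give. A shared transition counts in every tumour that carries it, so the same variants recur from tumour to tumour. The SD of 1.68 is therefore not a spread over separate sets of variants, and the differences of the tumours are not independent. With the limit at 10% in place of 20%, which moves transitions of 10 to 20% into the other class, the difference from higher-share private transitions was 4.89 points over 33 tumours (adjusted p = 0.266), so that comparison holds for a limit of 20% or 15% and not of 10%.

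Both kinds of transition took part. For C>T changes the ratio of missense to synonymous was 2 (248 to 124), against 0.768 for private changes from 20% and 0.516 for shared ones. For T>C changes it was 1.51 (130 to 86), against 0.685 and 0.351. Low-share private transversions, which change the amino acid more often by the structure of the genetic code, had 451 missense and 102 synonymous changes, a ratio of 4.42.

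By read share, the missense share was nearly level within the low range and lower beyond it. It was 66.1% below 5%, 61.5% from 5 to 10%, 67.4% from 10 to 15% and 61.2% from 15 to 20%, with intervals that overlap. It was then 53.1% from 20 to 30%, 45.2% from 30 to 40%, 39.4% from 40 to 60% and 40% from there on. The intervals on either side of the limit overlap, at 48.5 to 72.9% (15 to 20%) and 41.7 to 64.3% (20 to 30%). Tumours 2 and 5 held 888 of the 1609 private transitions of the range from 40 to 60%, and without both its missense share was 47.3% and that of the last range 50%. The coding part moved in another way: missense plus synonymous variants were 50.5% of all below 5%, 34.6% from 5 to 10%, 17.6% from 10 to 15% and 13.7% from 15 to 20%. From 20% it was 16.2% (20 to 30%), 18.2% (30 to 40%), 23.8% (40 to 60%) and 7.26% (60% and above), so only the ranges below 10% lay above all of these. C>T changes made up 66.6%, 58.1%, 55.6% and 50.0% of the 4 ranges below 20%. These ranges were set out as a description, with no test.

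**Figure D1:**
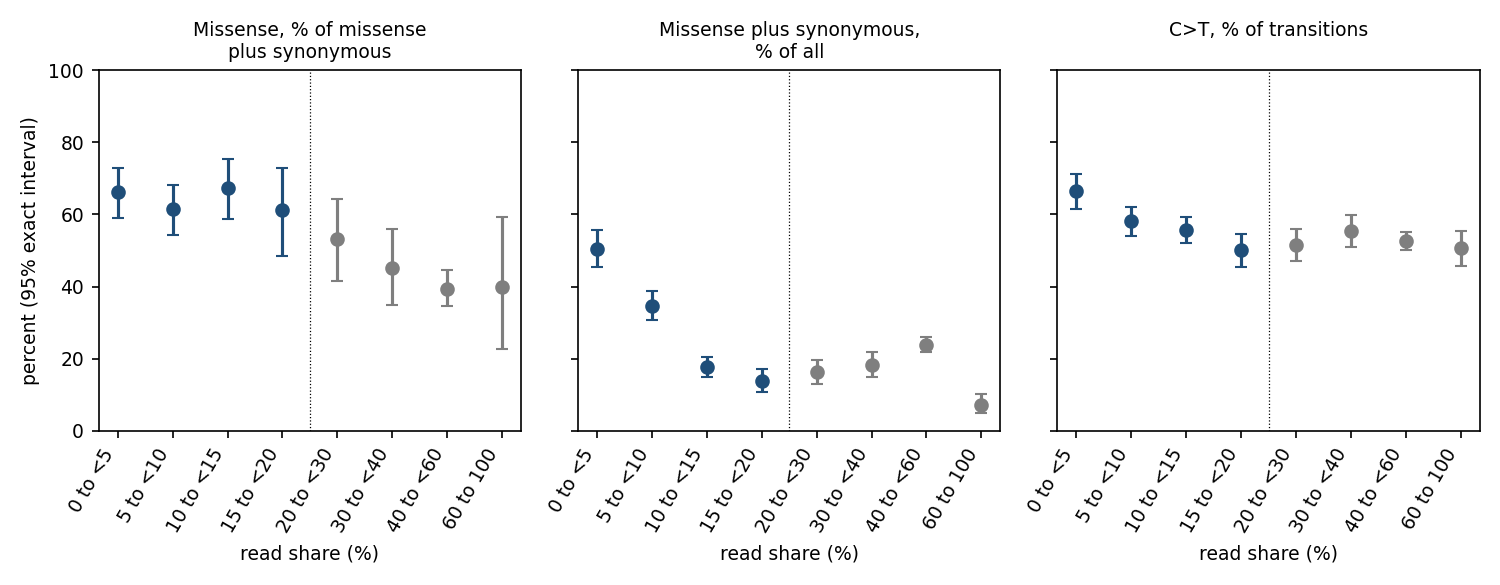
Percent of missense among coding variants (left), of coding variants among all (middle) and of C>T among private transitions (right) by read share range in percent, with exact 95% intervals. Blue points left of the dotted line are the low-share transitions and grey points are those from 20%: the missense percent lies between 61.2 and 67.4 left of the line and at or below 53.1 right of it, while the coding percent falls from 50.5 to 13.7 within the low range.

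Per tumour, the coding part of the low-share transitions was 26.7 ± 6.31% (SD, n = 44), ranging from 12.2% in tumour 6 to 40.4% in tumour 27. In the low-share private transversions it was 20.1 ± 6.78%, lower in 34 of 44 tumours, a difference of 6.62 points (adjusted permutation p = 3.5e-05). In private transitions from 20% it was 14.9 ± 8.82%, lower in 39 of 44, a difference of 11.8 points (adjusted p = 3.5e-05, same test). By range, as given above, the pooled coding part exceeded that of every range from 20% only below a share of 10%. These classes are split on read share and depth is not in the table, so the part of detection in this difference was not tested. The C>T part of the low-share transitions was 58.7 ± 10.2% (SD, n = 44), from 36.9% in tumour 11 to 78.6% in tumour 44. It was 4.80 points above that of shared transitions, at 53.9 ± 1.002%, and higher in 31 of 44 tumours (adjusted permutation p = 0.00697). Here too the tumours count the same shared variants again, so the differences are not independent. Against private transitions from 20%, at 53.4 ± 14.1%, the difference of 5.32 points was positive in 28 tumours and missed the threshold (adjusted permutation p = 0.0517), which it passed under 7 alternative settings, without tumours 2 and 5 among them.

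Changes of alanine led the amino acid substitutions. Among 376 missense or stop changes with a written residue, 47 (12.5%) were alanine to valine, 33 alanine to threonine, 26 glycine to aspartate, 23 arginine to histidine and 21 leucine to proline. Arginine changes of the kind that a C>T step in a CG codon makes were 55 of the 376 (14.6%, exact interval 11.2 to 18.6%). They were 24 of 242 (9.92%, 6.46 to 14.4%) in private transitions from 20% and 67 of 533 (12.6%, 9.88 to 15.7%) in shared ones, and these intervals overlap. On the coding strand, C>T rather than G>A made up 52.4 ± 10.03% (SD, n = 44) of the C>T changes in genes, which did not pass against 50% (adjusted permutation p = 0.133). Without large gene families and predicted genes the excess was 3.12 points and passed (adjusted permutation p = 0.0492).

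The variants were spread over all 44 tumours. The number per tumour ran from 26 in tumour 24 through a median of 48.5 to 96 in tumour 19, a 3.69-fold range. The mean was 49.6 ± 15.1 (SD, n = 44). Private transitions from 20% ran from 5 in tumour 40 to 898 in tumour 2, and low-share transversions from 12 in tumour 39 to 180 in tumour 9. The 2 tumours with the most low-share transitions held 7.79% of them, and the 2 richest in higher-share private transitions held 43.3% of those. C>T changes varied less than T>C changes: 15 to 42 per tumour (28.2 ± 6.64) against 6 to 56 (21.3 ± 10.6), with C>T more numerous in 36 tumours. Tumour 19 had 40 C>T and 56 T>C changes, the highest number of T>C in any tumour.

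**Figure D2:**
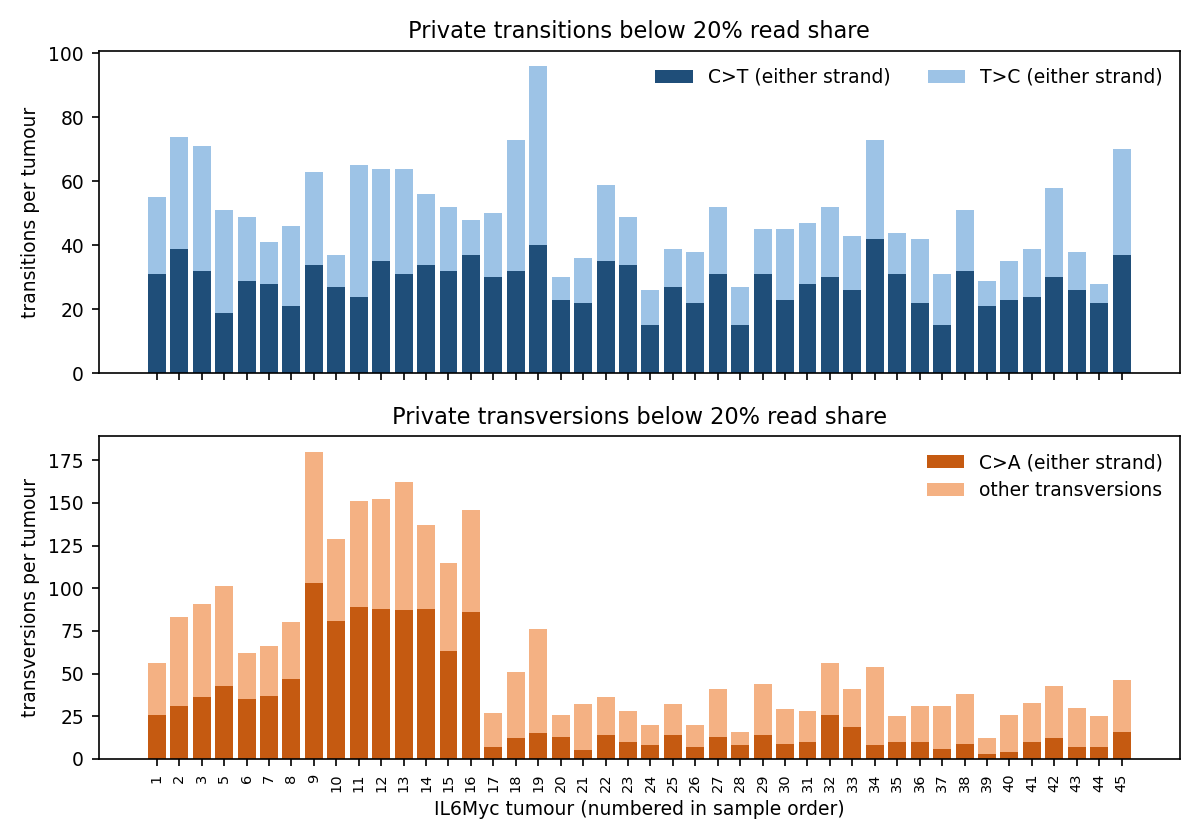
Number of private variants below 20% read share in each of 44 IL6Myc tumours: transitions above, split into C>T and T>C, and transversions below, split into C>A and the rest. Transitions lie between 26 and 96 in every tumour, while tumours 9 to 16 have 115 to 180 transversions and every other tumour has fewer.

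Tumours with more low-share transitions also had more low-share transversions. Over 44 tumours Pearson's r was 0.478 (permutation adjusted p = 0.00192) and Spearman's rho 0.690 (adjusted p = 3.5e-05), and without tumours 2 and 19, the farthest from the median, r was 0.520 (permutation p = 0.00038). Tumours 9 to 16, with sample titles between 1510 and 1568, had 63 to 103 C>A changes each but 37 to 65 low-share transitions. The titles fall into 3 number ranges, which the labels do not call batches. Tumours titled 1199 to 1293 had 62.8 ± 11.4 low-share transitions (SD, n = 4), those titled 1501 to 1592 had 54.3 ± 15.5 (n = 18) and those titled 1601 to 1628 had 43.3 ± 12.6 (n = 22). Within the last range r was 0.816 (permutation adjusted p = 3.5e-05) and within the middle one, which holds tumours 9 to 16, it was 0.276 (permutation adjusted p = 0.322); 4 tumours are too few for the first. Against low-share transversions other than C>A, r over all 44 tumours was 0.687 (permutation adjusted p = 3.5e-05). The part that the title ranges, depth or tumour content play was not tested.

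With private transitions from 20% the relation was weaker: r was 0.340 (permutation adjusted p = 0.0373) and rho 0.492 (permutation adjusted p = 0.00192). Without tumours 2 and 19, r was 0.267 (permutation p = 0.0857). Without tumours 2 and 5, which held the most private transitions from 20%, r was 0.441 (permutation adjusted p = 0.00758). Within the title ranges it was 0.337 (adjusted p = 0.211, 18 tumours) and 0.207 (adjusted p = 0.453, 22 tumours; permutation tests), so the threshold was not passed within either, although r in the first of these was close to that over all tumours.

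The low-share transitions were mostly isolated. Within 1000 bases of another of the same tumour lay 129 of them (5.91%), in 63 runs in 33 tumours, while 11 tumours had none. Of the runs, 60 had 2 variants and 3 had 3. Per tumour the clustered part was 6.09 ± 5.62% (SD, n = 44), from 0 to 20.4% in tumour 6. It was 6.31 ± 5.57% for low-share transversions, a difference of -0.219 points (adjusted permutation p = 0.851), and the sign of that small difference changes with the settings. Private transitions from 20% were clustered more, at 15.1 ± 13.4%, higher in 30 tumours and lower in 12 (difference of -9.03 points, adjusted permutation p = 0.000644). Without tumours 2 and 5 that difference was -7.33 points (adjusted permutation p = 0.00224).

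**Figure D3:**
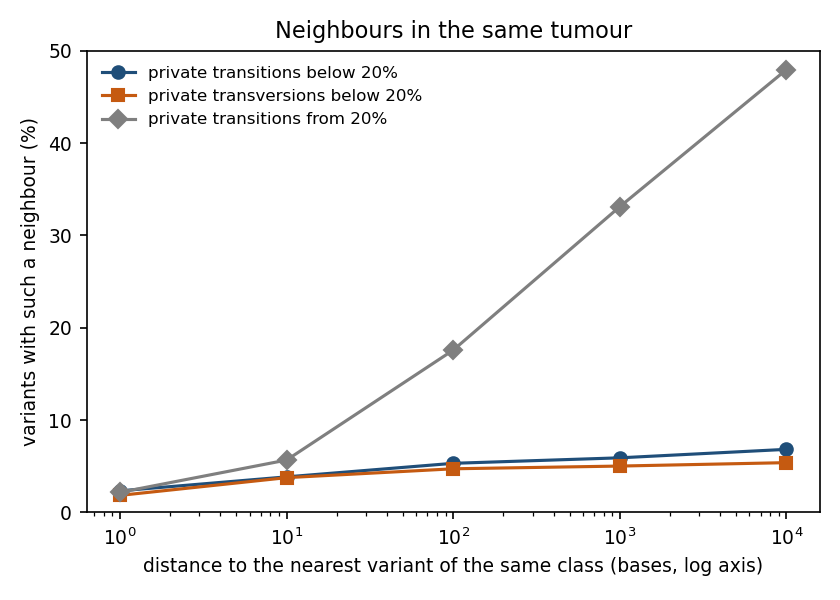
Percent of private variants, pooled over 44 tumours, with a variant of the same class in the same tumour at or within a given distance in bases (log axis). Low-share transitions go from 2.34% at 1 base to 6.83% at 10000 bases and stay near the low-share transversions (1.85 to 5.39%), while private transitions from 20%, of which 43.3% are from tumours 2 and 5, reach 48.0%. As a mean over tumours, the difference between low-share and higher-share transitions at 10000 bases was -12.1 points.

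Much of the clustering was at very short distance and at equal share. Of the 63 runs, 25 held neighbouring bases, and in 24 of these the read shares were identical. Among the 38 runs without neighbouring bases, 11 had identical shares. By change, 25 runs were all C>T, 12 all T>C and 26 mixed. By place, 33 were intergenic, and 4 held a missense change. The 3 runs of 3 were intergenic: tumour 3 had 3 changes within 3 bases at 10% each on chromosome 7 (41098842 to 41098844), tumour 35 had 3 at 8.51% each on chromosome 13 (77669330 to 77669333), and tumour 14 had 3 at 6.25 to 8.89% on chromosome 17 (53360627 to 53360741). The other runs were pairs, and those on neighbouring bases are tied in size and span. Such pairs lay in introns of Sntg1, a syntrophin (9.52%, tumour 14), Ccl4, a chemokine (18.18%, tumour 3), Clybl, a mitochondrial enzyme (13.04%, tumour 41), H2-Q10, a class I histocompatibility gene (14.29%, tumour 29), and Bpi, an antibacterial protein (14.29%, tumour 30). Intronic pairs were also found in the predicted genes Gm7120 (16.67%, tumour 39) and 1700001F09Rik (11.76%, tumour 20). Counting any single-base call of the same tumour, 321 variants (14.7%) had one within 1000 bases and 163 (7.47%) within 10 bases.

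A few regions gathered variants from many tumours. The unplaced contig JH584304 carried 37, all intergenic, in 22 tumours, with 22 low-share transversions beside them. In windows of 1 Mb, chromosome 1 from 85067337 to 85723053 held 21 in 13 tumours, with Sp140 and Sp110, paralogous nuclear body genes. That window also held 21 low-share transversions and 8 private transitions from 20%. Chromosome 4 from 147041480 to 147755505 held 19 low-share transitions in 15 tumours, in genes such as Gm13152, which RefSeq names Zfp982. The other classes had 11 and 9 there. Chromosome 3 from 93206466 to 93980598 held 15 low-share transitions in 13 tumours, with the epidermal repeat protein gene Flg2 and Tdpoz4. The other classes had 12 and 16 there. The Sp100 family, Gm13152 and its zinc finger neighbours, and the Tdpoz genes of these windows have near-identical copies, so which copy the reads came from is uncertain. Of 1106 windows with a low-share transition, 607 had 1, and the 67 with 5 or more held 481 variants (22.1%).

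Other windows held known coding genes. On chromosome 2, 12 variants of 10 tumours (76709324 to 76974334) were all in Ttn, which encodes the giant muscle protein titin, where 1 low-share transversion was called. On chromosome 13, 11 variants of 8 tumours (23075905 to 23763905) lay mostly in the main histone cluster. That window also held 7 low-share transversions and 9 private transitions from 20%. Over the genome 12 variants in 8 tumours were annotated to 11 histone genes, with 6 missense and 4 synonymous changes, and 10 of the 12 were C>T, against 56.9% over all 2181 variants. Histone genes in all were not counted, so no share of them can be set beside the 6.45% of all protein-coding genes given below. Histone genes of a kind resemble each other closely, so the copy is uncertain here too, and the group was chosen after its values were seen.

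Few genes were hit more than once. In all, 1612 variants fell in 1492 genes as annotated, of which 1338 had 1 variant, 118 had variants in 2 tumours and 17 in 3 or more. Of 21900 RefSeq protein-coding genes, 1413 (6.45%) had a low-share transition, 372 (1.7%) had a protein-altering one and 126 (0.575%) had them in 2 or more tumours. For low-share private transversions the same shares were 8.49%, 2.16% and 0.749%, and for private transitions from 20% they were 5.49%, 0.945% and 0.927%. No residue was changed in 2 tumours, and 1 residue was changed by 2 variants of the same tumour.

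Ttn led with 12 variants in 10 tumours. Its 4 missense changes were p.Ala17338Val at 2.90% in tumour 12, p.Glu26591Gly at 16.3% in tumour 19, p.Gly22467Asp at 2.36% in tumour 24 and p.Ala19574Val at 3.23% in tumour 36, beside 3 synonymous and 5 intronic ones. Gm13152 followed with 10, all intronic, in 8 tumours at 8.11 to 19.23%. Those from 147187527 to 147390827 lie before the interval that RefSeq gives this gene, as Zfp982, which starts at 147443114. The gene is therefore uncertain. Sp140, a chromatin reader of lymphoid cells, had 6 in 5 tumours, of which 5 were intronic and 1 was p.Leu258Phe at 3.85% in tumour 42. Dnah8, a dynein heavy chain of cilia and flagella, had 5 in 4 tumours at 7.14 to 18.18%, none of them missense. Flg2 had 5 in 4 tumours at 3.10 to 18.52%, with 1 missense change.

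The other genes with variants in 3 tumours included Abca4, the photoreceptor lipid transporter (3 variants, with p.Gly1581Asp at 4%), Pls1, an actin bundler (3, with p.Arg286Cys at 4.48%), and Prg4, the joint lubricant lubricin (3, with p.Leu609Pro at 6.45%). Myo10, Nav1, Tspan5, Cntnap5b, Nlrp5 and Sfi1, as well as 2610305D13Rik, which RefSeq names Zfp979, and the predicted gene Gm5622, had no missense change. Bc1, a small RNA that the table lists beside other genes on more than 1 chromosome, had 3 intronic calls that may belong to those genes. Cdr1 had 3 in 2 tumours, among them neighbouring changes at 1.73% each in tumour 6, and Adam20, a testis protein of the ADAM family, had 3 in 2 tumours at 2.56 to 3.80%.

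Of 366 genes with a missense change, 12 had such changes in 2 or more tumours. No such count was made for the other classes of variants. The 12 were Ttn, in 4 tumours, and Clca1, Elane, Fam110c, Fign, Hist1h1c, Krt78, Myo18b, Nhsl2, Pcbp1, Rassf9 and Usp19, in 2 each. These were singled out after their values were seen. The 3 changes of Clca1 lie outside the interval that RefSeq gives this symbol, so the gene is uncertain. Hist1h1c, a linker histone, had p.Ala69Thr at 7.41% in tumour 22 and p.Pro182Ser at 12.77% in tumour 36. Pcbp1, an RNA-binding protein, had p.Ser90Asn at 15.56% in tumour 34 and p.Ala236Thr at 2.42% in tumour 45. Elane, neutrophil elastase, had p.Ala35Val at 5.08% in tumour 34 and p.Ala44Thr at 5% in tumour 40.

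Stop codons were gained in 6 genes and essential splice sites were hit in 5, by 1 variant each. The stops gained were in Atf6b, a stress-responsive transcription factor of the endoplasmic reticulum (p.Gln648Ter, 11.11%, tumour 42), Atp1b3, a sodium pump subunit (p.Arg226Ter, 19.75%, tumour 26), and Hsd17b4, an enzyme of peroxisomal fat oxidation (p.Trp651Ter, 3%, tumour 20). The others were in Pmfbp1, of the sperm head-tail junction (p.Gln724Ter, 8.57%, tumour 12), the splicing factor Sf1 (p.Trp544Ter, 10.53%, tumour 25) and Tmprss6, a liver protease of iron control (p.Trp368Ter, 12.5%, tumour 32). Splice sites were hit in Cacul1, Ccnl1, Cxcl1, Rps20 and Tc2n at 3.23 to 13.33%.

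Among genes that AID is known to mutate outside the antibody loci, 10 of 48 (20.8%) carried a low-share transition, against 6.45% of all protein-coding genes. Low-share transversions hit 9 of the 48 (18.8%), against 8.49%. The list held 11 transitions, and all 11 were C>T, against 56.9% over the 2181 variants. Protein-altering changes were in 5 of the 48 genes, against 1.7% of all protein-coding genes. Beside Pim1 and Hist1h1c, the listed genes so changed were Cd83, an activation marker of B and dendritic cells (p.Leu45Phe, 9.30%, tumour 42), Hist1h2bc, a core histone (p.His110Tyr, 3.77%, tumour 26), and Socs1, an inhibitor of cytokine signalling (p.Gly134Asp, 10.53%, tumour 16). For Hist1h1c and Hist1h2bc the copy is uncertain, as given above. The intronic and synonymous ones included Cxcr4, the chemokine receptor of bone marrow homing, 34 bases into an intron (4.71%, tumour 32), and Pou2af1, a B cell coactivator (9.38%, tumour 11). The list was made with earlier results of these data known and has no test of its own; its genes had a median of 0 variants, as did all genes.

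**Figure D4:**
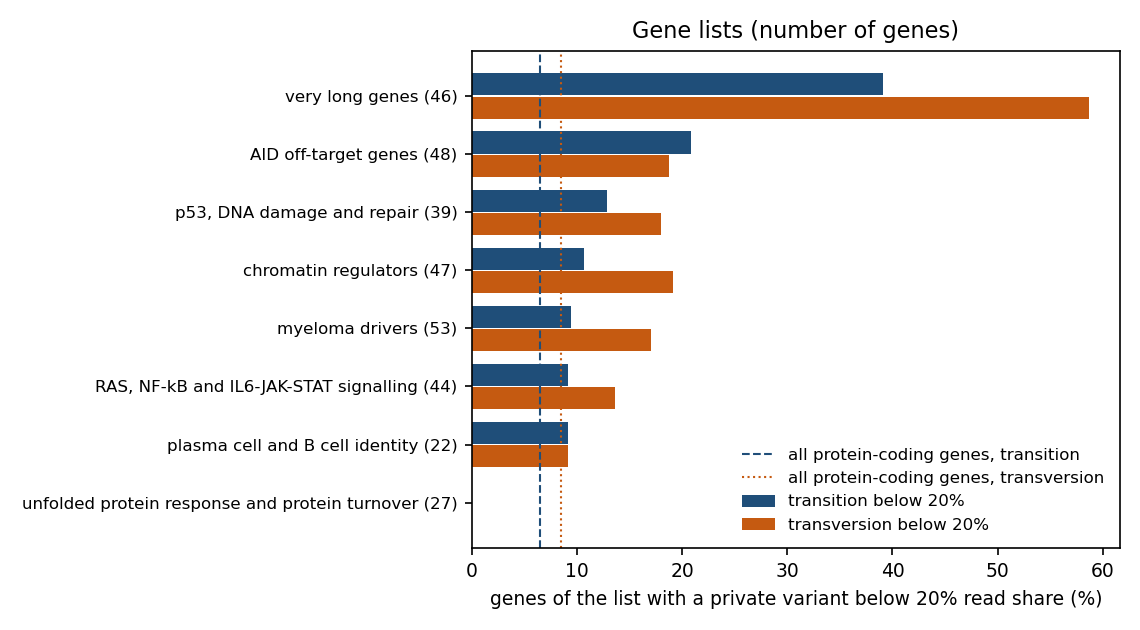
Percent of the genes of 8 lists with at least 1 private transition (blue) or transversion (orange) below 20% read share; lines give the percent over all 21900 protein-coding genes, 6.45 and 8.49. The very long genes (39.1 and 58.7) and the AID off-target genes (20.8 and 18.8) lie farthest right. The 27 genes listed for the unfolded protein response and protein turnover are at 0 for both.

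Of 46 very long genes, 18 (39.1%) had a low-share transition, against 6.45% of all protein-coding genes, and 27 (58.7%) a low-share transversion, against 8.49%. These 18 genes held 39 transitions, of which 7 were missense and 11 synonymous, and 17 were C>T. Fat2, a giant cadherin, had p.Arg1934Gly at 17.86% in tumour 41, and Pclo, a presynaptic scaffold, had p.Val2135Ala at 3.54% in tumour 37. Coding lengths were not used here, so the part of length in the other lists' counts was not tested.

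Of the lists of myeloma biology, 5 had hits in 9.09 to 12.8% of their genes, against 6.45% of all protein-coding genes. Low-share transversions hit 9.09 to 19.1% of the genes of these 5 lists, against 8.49% of all. Of 53 myeloma driver genes, 5 (9.43%) carried 10 transitions, 6 of them in Sp140, where the copy the reads came from is uncertain, as given above. Traf3, a brake on NF-κB signalling, had p.Arg162Gln at 10.71% in tumour 41. Of 39 genes of p53, DNA damage and repair, 5 (12.8%) had 6. Of 47 chromatin regulators, 5 (10.6%) had 1 each, with p.Ala414Thr of the histone methyltransferase Kmt2a at 3.88% and p.Arg1192His of the remodeller Smarca4 at 16.22%, both in tumour 1. Of 44 genes of RAS, NF-κB and IL6-JAK-STAT signalling, 4 (9.09%) had 1 each, and of 22 genes of plasma cell and B cell identity, 2 (9.09%). The 27 genes of the unfolded protein response and protein turnover had 0, where Atf6b is not a listed gene.

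Position relative to gene starts was compared because AID acts there. Of the low-share transitions in genes, 19.4 ± 7.82% (SD, n = 43) lay within 2000 bases downstream of the gene start, against 20.1 ± 11.96% of low-share transversions. They were higher in 22 tumours and lower in 21, a difference of -0.772 points (adjusted permutation p = 0.761), and its sign changes under 3 settings. Among chromosomes, 7 had the most, 206 (9.45%), and holds 9.27% of the genes. Chromosome 2, which held 29.3% of the private transitions from 20%, had 140 of the low-share ones (6.42%).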

How the data were processed

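Exome variants of 44 IL6Myc mouse tumours were read from 1 annotated table. Per the labels' protocols, a DNeasy kit yielded the DNA and a SureSelect mouse exon design captured it; GATK and mm10 are named, per the submitters' processing notes. Aligner, filters and annotation tool: not given in the sources used here. Deposited tumour cells hold a percent, read from its values as the share of reads with the alternate base, and the deposited carrier count equals the number of filled cells in every row. Depth is not in the table, so precision per value is unknown. Left out were 199 rows with several alternate alleles, which repeat other rows.

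The members, gene lists, comparisons and named genes were chosen with earlier results of these data known. Variants went to the genes with a written protein change, or to all genes of a row where none had one. Shares were taken per tumour, with at least 5 variants in each class, and compared within tumours by two-sided sign-flip permutation (100000 resamples), and numbers per tumour by permuted correlation; 14 tests were adjusted by Benjamini-Hochberg, with a threshold of 0.05. A p from this test is over mice, but in comparisons with shared transitions the mice count the same variants again. Scripts used numpy 2.4.6, pandas 2.3.3 and scipy 1.17.1, and were tested on simulated data. Coding strand came from the written transcript change and gene starts from RefSeq promoter windows, not from the gene table planned for. Named are up to 20 genes with variants in the most tumours, genes of the 10 largest runs, up to 20 listed genes with protein-altering variants, up to 15 genes with stop, start or splice variants, and residues changed in several tumours. Of the variants so named, 2 are not reported here.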

Additional observations from a re-analysis of the deposited data

How the results depend on the processing

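Under the main set of alternative settings, 91 values kept their direction and side of the threshold, 7 passed it anew, 3 no longer passed, 6 changed sign and 1 moved; of those added after the data were seen, 11, 1, 3 and 1 did so in the same order, with 0 moved. The excess of C>T over private transitions from 20% became significant with the limit at 15% (7.78 points) or 10% (9.53), without large families and predicted genes (5.78), without the 3 richest tumours (6.16), with at least 10 variants per tumour (7.21), with pooled shares (4.27) and, added, without tumours 2 and 5 (5.93). The missense excess over the same class fell to 4.89 points at a limit of 10%, which left 958 members. Coding-strand C>T passed without families and predicted genes (3.12 points). The difference near gene starts, never past the threshold, changed sign at 15% (0.260), without families (0.0652) and pooled (2.74); that in clustering against transversions did so at 10% (0.825), pooled (0.893), with a window of 10000 bases (0.355) and, added, against transversions other than C>A (0.269). The correlation with private transitions from 20% no longer passed at 10% (0.291), without the 3 richest tumours (0.278) or within titles 1501 to 1592 (0.337) and 1601 to 1628 (0.207), nor did that with transversions within titles 1501 to 1592 (0.276). The causes were not tested. No paired analysis was possible because tumours and kidneys share only numbers given in accession order and no kidney column was used. Without depth, missing calls limit what private means, and sequence context was read for 34 variants alone.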
